A study of Mus musculus with 16 samples.

Results

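A set of 9 genes of the glucocorticoid response was followed across the hearts of mice kept on 4 diets: Fkbp5, Tsc22d3, Zbtb16, Cdkn1a, Sgk1, Klf9, Nr3c1, Cebpd and Errfi1. Nr3c1 encodes the hormone's receptor, and the other 8 are known to be induced by the hormone. The 9 were taken by gene symbol from the deposited table of counts, in which all 9 were found among 17737 genes, and all 9 were among the 13381 genes that passed the filter on low counts. Messenger RNA was sequenced from the lower ventricles of 16 male C57BL/6 mice, with 4 mice on each diet, 1 library per mouse and no mice pooled. The mice were 6 weeks old at the start and ate their diet for 6 months. The UW and NIA diets are formulas made for primates. The mNIA diet is NIA with its sucrose and fat brought to those of UW. Chow is a standard rodent diet. The labels name no transgene and no steroid treatment, and they give neither the hour of collection nor a blood corticosterone level. All mice were euthanized by isoflurane overdose and exsanguination. Groups follow the sample titles. The library codes do not spell the titles' diets, so which primate-formula group is which is not settled, whereas the mean of the 3 formulas minus Chow does not depend on it.

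Glucocorticoids, in the mouse mainly corticosterone, are released by the adrenal gland in a daily rhythm and under stress. They bind the glucocorticoid receptor, which is encoded by Nr3c1 and is held by heat shock protein chaperones in the cytoplasm until the hormone is bound. The receptor then enters the nucleus and binds response elements, ideally a palindrome with a pair of like arms, from which it raises transcription of its target genes. In the heart the hormone acts on cardiomyocytes and on the other cells of the wall, and many of its target genes also answer other signals. Fkbp5, Tsc22d3 and Zbtb16 are the members most often used as indices of the hormone's action, while Cdkn1a, Sgk1, Cebpd and Errfi1 also respond to stress, growth factor or cytokine signals.

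The letters before the start sites are shown for 3 members because the receptor's recognition sequence can be looked for there. RefSeq promoter windows on GRCm38.p6, each from 250 bases before a transcript start to 50 bases from it on, were matched by symbol for 6 of the 9 members, 15 windows in all. Zbtb16, Cebpd and Nr3c1 were not searched. The windows were searched on both strands for the palindrome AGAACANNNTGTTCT, for a single arm, AGAACA or TGTTCT, and for the E-box CACGTG, which clock factors and other helix-loop-helix factors bind. The palindrome contains an arm at each end. The window of 1 Sgk1 start, chr10:21993640-21993939 on the plus strand, held the palindrome as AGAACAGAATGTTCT at bases -189 to -175 counted from the start, and it is in capitals here.
Sgk1: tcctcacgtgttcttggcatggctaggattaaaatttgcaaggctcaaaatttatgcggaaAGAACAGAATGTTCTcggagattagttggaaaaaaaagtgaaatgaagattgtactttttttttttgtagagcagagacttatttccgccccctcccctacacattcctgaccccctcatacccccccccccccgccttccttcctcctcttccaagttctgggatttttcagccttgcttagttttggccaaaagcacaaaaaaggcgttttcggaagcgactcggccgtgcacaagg
A window of Tsc22d3, chrX:140600473-140600772 on the minus strand, held a single arm at bases -185 to -180, in capitals here.
Tsc22d3: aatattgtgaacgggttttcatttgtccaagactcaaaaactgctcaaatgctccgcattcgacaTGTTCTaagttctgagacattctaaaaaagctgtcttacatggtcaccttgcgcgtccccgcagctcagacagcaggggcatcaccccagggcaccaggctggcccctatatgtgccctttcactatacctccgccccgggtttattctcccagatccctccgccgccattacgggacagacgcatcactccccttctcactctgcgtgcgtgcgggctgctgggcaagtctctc
The window of Fkbp5, chr17:28486100-28486399 on the minus strand, held no arm but an E-box at bases -169 to -164, in capitals here.
Fkbp5: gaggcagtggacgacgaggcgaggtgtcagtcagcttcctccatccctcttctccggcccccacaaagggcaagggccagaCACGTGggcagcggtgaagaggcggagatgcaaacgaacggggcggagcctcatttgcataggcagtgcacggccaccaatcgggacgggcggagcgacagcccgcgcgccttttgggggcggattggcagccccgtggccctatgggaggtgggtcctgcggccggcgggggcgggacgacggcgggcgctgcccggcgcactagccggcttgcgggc
The palindrome was found in 3 of 32851 windows of all genes, or 0.00913%, and in 1 of the 15 windows of the members. An arm was found in 19.0% of all windows and in 4 of the 15. Sgk1 alone has 6 of the 15 windows, and every member window with an arm was one of Sgk1 except that of Tsc22d3. The counts over windows are therefore not a rate over genes. An E-box was found in 7.15% of all windows and in 2 of the 15, and the E-box of the Sgk1 window overlaps a further arm. These matches describe the letters of short windows, and receptor binding was not measured.

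Total counts ran from 4880235 to 6583532 in UW libraries, from 3870480 to 6544172 in mNIA libraries and from 4263827 to 5953964 in Chow libraries. In NIA they ran from 2278250 in replicate 4 to 63005490 in replicate 2. Libraries are named here by diet and replicate number, and levels are CPM, counts set relative to the TMM-scaled library total. A sample quality weight, estimated by limma, was under 0.5 for Chow 3, NIA 1, NIA 4 and mNIA 2. The labelled tissue held its markers: the summed level of the 8 cardiomyocyte markers was 50300 to 76700 CPM in UW, 59100 to 96700 CPM in mNIA, 46900 to 106000 CPM in NIA and 51200 to 78000 CPM in Chow. Markers of fat cells summed to at most 0.669 CPM in any library. In such bulk tissue, fewer cells of a type and less RNA per cell cannot be told apart.

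Per kilobase of exon, the level was highest for Klf9 at a mean of 29.1 CPM per kb over the 16 libraries, then for Tsc22d3 at 23.3, Sgk1 at 18.7, Nr3c1 at 14.0 and Zbtb16 at 12.6 CPM per kb. Lower levels were those of Errfi1 at 7.14, Cdkn1a at 5.93, Cebpd at 3.08 and Fkbp5 at 1.97 CPM per kb. The ranges over libraries of any 2 neighbours in this order overlapped. The spread between mice was unlike for the members. Between the lowest and the highest library, the level differed 7.80-fold for Zbtb16, 6.65-fold for Cdkn1a and 6.60-fold for Fkbp5, but 1.67-fold for Klf9. The SD of log2 CPM over the 16 libraries was 0.74 for Zbtb16, 0.72 for Cdkn1a, 0.67 for Errfi1 and 0.62 for Fkbp5, against a median of 0.43 over all tested genes. Among genes within 2-fold of the same level, 96.3% had a smaller SD than Zbtb16, 94.8% a smaller SD than Cdkn1a and 15.8% a smaller SD than Klf9.

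**Figure D1:**
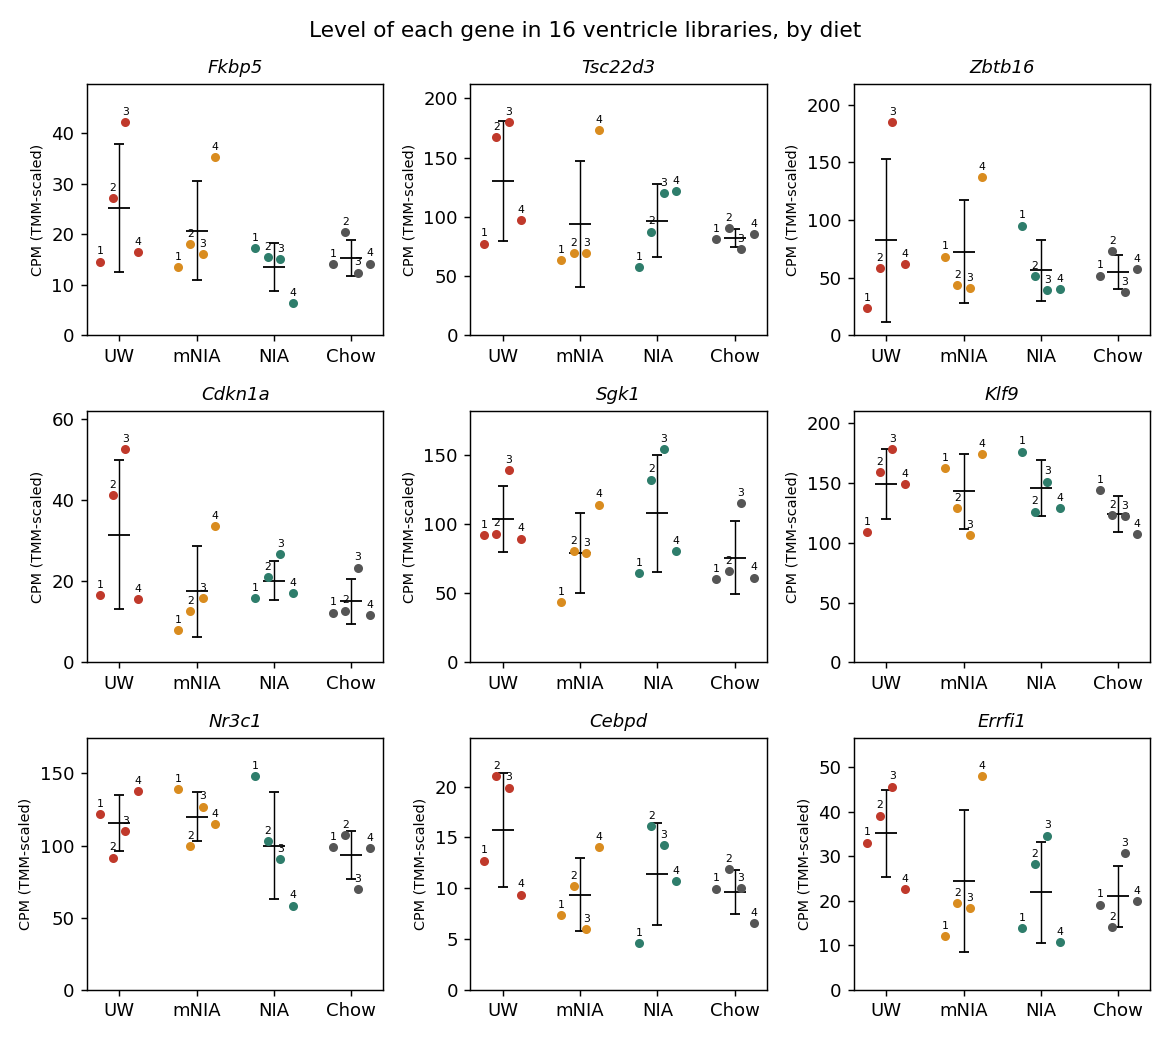
Level of each of the 9 genes in the 16 libraries, with the vertical axis in TMM-scaled CPM, numbered points for the mice of each diet, and a bar with whiskers for the mean and SD of 4 mice. UW 2, UW 3 and mNIA 4 lie above the other mice of their diets for Fkbp5, Tsc22d3 and Cdkn1a, while the 4 groups overlap for each gene.

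Fkbp5 encodes a co-chaperone of the receptor that lowers its hormone binding, so that its induction closes a feedback loop. The file places it at chromosome 17, 28398753 to 28486150, on the minus strand of mm10. Its level was 14.6, 27.1, 42.2 and 16.5 CPM in UW libraries 1 to 4 and 13.5, 18.0, 16.1 and 35.2 CPM in mNIA libraries. It was 17.2, 15.4, 15.1 and 6.40 CPM in NIA libraries, and 14.1, 20.4, 12.4 and 14.2 CPM in Chow libraries. UW 2, UW 3 and mNIA 4 stood above every Chow mouse, while UW 1 and UW 4 lay within the Chow range. The means were 25.1 ± 12.7 CPM in UW, 20.7 ± 9.85 CPM in mNIA, 13.5 ± 4.83 CPM in NIA and 15.2 ± 3.53 CPM in Chow (SD, n = 4 each). The lowest library, NIA 4, held only 9 counts of Fkbp5.

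Tsc22d3 encodes GILZ, a leucine zipper protein that carries part of the hormone's anti-inflammatory action (chromosome X, 140539529 to 140600523, minus strand). It stood at 77.4, 167, 180 and 97.1 CPM in UW libraries 1 to 4, at 63.2, 69.5, 69.6 and 173 CPM in mNIA libraries, at 57.5, 87.5, 120 and 122 CPM in NIA libraries and at 81.0, 90.6, 72.6 and 85.5 CPM in Chow libraries. The same UW 2, UW 3 and mNIA 4 were highest, and the 4 Chow mice lay close together. Means were 130 ± 50.8 CPM in UW, 93.9 ± 53 CPM in mNIA, 96.9 ± 30.8 CPM in NIA and 82.4 ± 7.60 CPM in Chow (SD, n = 4 each).

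Zbtb16 encodes the zinc finger repressor PLZF, which is strongly induced by glucocorticoids in many tissues (chromosome 9, 48651797 to 48836226, minus strand). In UW libraries 1 to 4 it had 23.7, 58.5, 185 and 61.9 CPM, in mNIA libraries 68.3, 43.6, 41.1 and 137 CPM, in NIA libraries 95.2, 51.6, 39.3 and 39.8 CPM, and in Chow libraries 51.7, 73.1, 37.5 and 57.1 CPM. UW held both the highest and the lowest mouse of all 16, and UW 2, which was high for Fkbp5 and Tsc22d3, lay within the Chow range here. Klf9 encodes a Krüppel-like repressor that links the hormone to the clock and the cell cycle (chromosome 19, 23141226 to 23166912, plus strand). Its levels were 109, 159, 178 and 149 CPM in UW, 162, 129, 106 and 174 CPM in mNIA, 176, 126, 151 and 129 CPM in NIA, and 144, 123, 122 and 107 CPM in Chow. UW 3, NIA 1 and mNIA 4 were the 3 highest for Klf9, as they were for Zbtb16.

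Sgk1 encodes a kinase that acts on ion channels and on survival pathways (chromosome 10, 21882184 to 21999903, plus strand). Its level was 91.8, 93.1, 139 and 89.5 CPM in UW libraries, 43.5, 80.4, 79.0 and 114 CPM in mNIA libraries, 64.6, 132, 154 and 80.4 CPM in NIA libraries and 60.3, 65.7, 115 and 61.3 CPM in Chow libraries. The highest mice were NIA 3, UW 3 and NIA 2, so that Sgk1 did not share its order with Fkbp5. Cdkn1a encodes p21, an inhibitor of cyclin-dependent kinases that p53 also induces (chromosome 17, 29090979 to 29100723, plus strand). It had 16.6, 41.2, 52.6 and 15.6 CPM in UW, 7.90, 12.7, 15.9 and 33.7 CPM in mNIA, 15.9, 21.0, 26.8 and 17.1 CPM in NIA, and 12.3, 12.8, 23.4 and 11.7 CPM in Chow. UW 3, UW 2 and mNIA 4 were highest for Cdkn1a, and Chow 3 stood apart from the other Chow mice for both Cdkn1a and Sgk1.

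Errfi1 encodes an inhibitor of the epidermal growth factor receptor, also called Mig-6 (chromosome 4, 150853796 to 150868890, plus strand). It was measured at 33.0, 39.1, 45.6 and 22.6 CPM in UW, at 12.1, 19.5, 18.3 and 47.9 CPM in mNIA, at 13.8, 28.2, 34.6 and 10.7 CPM in NIA, and at 19.1, 14.1, 30.6 and 19.9 CPM in Chow. UW 1, UW 2 and UW 3 lay above every Chow mouse, and UW 4 lay among them. Cebpd encodes a transcription factor of the C/EBP family that hormones and cytokines induce (chromosome 16, 15887286 to 15889546, plus strand). It had 12.7, 21.0, 19.9 and 9.35 CPM in UW, 7.34, 10.2, 5.93 and 14.0 CPM in mNIA, 4.61, 16.1, 14.2 and 10.7 CPM in NIA, and 9.95, 11.9, 10 and 6.59 CPM in Chow. UW 2 and UW 3 were the 2 highest, and UW 4 lay within the Chow range.

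Nr3c1 encodes the receptor itself, whose gene lies on chromosome 18 at 39410545 to 39519422 on the minus strand. Its level was 122, 91.7, 110 and 138 CPM in UW, 139, 99.5, 127 and 115 CPM in mNIA, 148, 103, 90.5 and 58.3 CPM in NIA, and 99.0, 107, 69.5 and 98 CPM in Chow. The 3 highest mice were NIA 1, mNIA 1 and UW 4, none of them among the 3 highest for Fkbp5. UW 2, at 91.7 CPM, was the lowest UW mouse for the receptor.

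The first question was whether a diet moved these genes relative to Chow. In UW hearts all 9 had a higher fitted level than in Chow hearts, with a median log2 fold change of 0.66, beside 49.2% of all tested genes higher and a median of -0.01. Most members vary together between mice (r positive in 31 of 36 pairs), so the directions of the 9 are not independent in this or any other comparison. None of the 9 passed the threshold of an adjusted p of 0.05 in edgeR's quasi-likelihood test, and the background was 0% of the 13381 genes called. The difference was 1.06 ± 0.42 (log2, SE) for Cdkn1a, 0.74 ± 0.39 for Errfi1, 0.71 ± 0.35 for Fkbp5, 0.70 ± 0.34 for Cebpd and 0.66 ± 0.34 for Tsc22d3. It was 0.58 ± 0.49 for Zbtb16, 0.45 ± 0.32 for Sgk1, 0.31 ± 0.24 for Nr3c1 and 0.26 ± 0.21 for Klf9, each with an adjusted p of 0.977. Before adjustment, Cdkn1a alone had a p under 0.05 in edgeR, as did 2.35% of all tested genes. The 95% confidence interval for Cdkn1a ran from 0.18 to 1.94 on the log2 scale. In the same comparison 0 of the 5 erythrocyte markers were higher in UW than in Chow hearts, with a median log2 fold change of -0.99, and 3 of the 5 had an unadjusted p under 0.05 in edgeR but none passed. No member had all 4 UW mice above all 4 Chow mice, which 1.97% of the tested genes had. Without UW 3, the log2 fold change was 0.33 for Fkbp5, 0.69 for Cdkn1a, 0.28 for Sgk1, 0.16 for Klf9 and -0.19 for Zbtb16. For the others it was 0.47 for Tsc22d3, 0.57 for Cebpd, 0.59 for Errfi1 and 0.33 for Nr3c1. That of Cebpd was lowest, at 0.53, without UW 2.

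**Figure D2:**
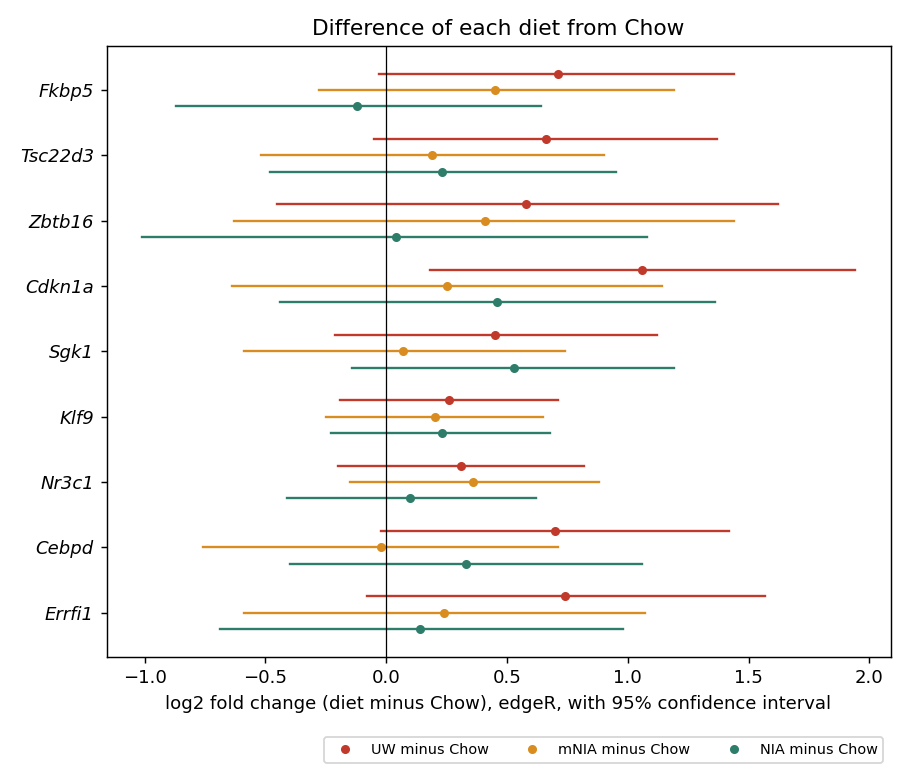
Log2 fold change of each gene for UW, mNIA and NIA minus Chow (horizontal axis), as points with 95% confidence intervals from edgeR. Only the interval of Cdkn1a in UW, 0.18 to 1.94, lies wholly on 1 side of 0, and no gene passed after adjustment.

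In mNIA hearts 8 of the 9 had a higher fitted level than in Chow hearts, with a median log2 fold change of 0.24, though Sgk1 came to 0.00 under upper-quartile scaling. None passed edgeR's test (adjusted p 0.983 to 0.998), beside 0.00747% of all genes called. The largest differences were 0.45 ± 0.35 for Fkbp5 and 0.41 ± 0.49 for Zbtb16, and Cebpd stood at -0.02 ± 0.35. Without mNIA 4, the log2 fold change was 0.06 for Fkbp5, 0.09 for Klf9, -0.29 for Tsc22d3, -0.28 for Cdkn1a, -0.16 for Sgk1, -0.31 for Cebpd, -0.32 for Errfi1 and -0.11 for Zbtb16. That of Nr3c1 was 0.36 with mNIA 4 and 0.38 without it. In NIA hearts 8 of the 9 were higher than in Chow hearts with a median of 0.23, and none passed (adjusted p 0.649 to 0.991, edgeR), beside 0% of all genes called. Sgk1 had the largest NIA difference of the 9, 0.53 ± 0.32, and Fkbp5 was at -0.12 ± 0.36. The difference of Sgk1 was 0.30 without NIA 3, 0.80 without Chow 3, 0.98 by limma-voom (adjusted p = 0.0655) and 1.17 in a fit of edgeR that left out Chow 3, NIA 1, NIA 4 and mNIA 2 (adjusted p = 0.0507). That last fit kept only NIA 2 and NIA 3 of the NIA mice, at 132 and 154 CPM of Sgk1. It dropped the lower NIA mice, at 64.6 and 80.4 CPM, and the highest Chow mouse, at 115 CPM. Before adjustment 0 of the 9 had a p under 0.05 in mNIA or in NIA, against 1.38% and 8.70% of all genes.

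The mean of the 3 formulas minus Chow, which needs no decision on which formula is which, was above 0 for all 9 members with a median of 0.35 on the log2 scale. It ran from 0.23 ± 0.18 for Klf9 to 0.59 ± 0.36 for Cdkn1a, and none passed (adjusted p 0.938 for each, edgeR), beside 0% of all genes called. Before adjustment 0 of the 9 and 2.19% of all genes had a p under 0.05. The 4 comparisons with Chow share the same 4 Chow mice, so that their directions are not independent. In the joint test for any difference between diets, 0 of the 9 passed, beside 0% of all genes, and the adjusted p ran from 0.813 for Cdkn1a to 0.958 for Klf9 in edgeR. Before adjustment, 0 of the 9 had a p under 0.05 in that test, against 6.88% of all genes. Diet held between 3.4% of the sum of squares of log2 CPM, for Zbtb16, and 29.4%, for Fkbp5. The median over the members was 22.5%, beside 19.2% over all tested genes.

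Between the formulas, mNIA minus UW is the comparison of diets matched in sucrose and fat, if the titles hold. In mNIA hearts 8 of the 9 genes had a lower fitted level than in UW hearts, with a median log2 fold change of -0.38, and 54.5% of all tested genes were higher. None passed (adjusted p 1 for each, edgeR), beside 0% of all genes called. Cebpd, at -0.73 ± 0.35, was the member with an unadjusted p under 0.05 in edgeR, as 0.986% of all genes had. Between UW and NIA, the difference of Fkbp5 was 0.83 ± 0.36 on the log2 scale (adjusted p = 0.304, edgeR) and 0.46 without UW 3, and 13.9% of all genes had an unadjusted p under 0.05. No member passed for UW minus NIA, beside 0% of all genes called, or for mNIA minus NIA, beside 0% of all genes called; before adjustment, 0 of the 9 and 8.91% of all genes had a p under 0.05 for mNIA minus NIA in edgeR. The NIA libraries are those that differ most in depth. Other fits called 1 of the 9, Sgk1, among many genes: for mNIA minus NIA without Chow 3, NIA 1, NIA 4 and mNIA 2, beside 23.1% of all genes called, and for any difference between diets by limma-voom, beside 15% of all genes called. The former fit kept only NIA 2 and NIA 3 of the NIA mice.

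The same few mice were high for most of the members. UW 3 was among the 3 highest of the 16 libraries for 8 of the 9 members, mNIA 4 for 6 and UW 2 for 5. Over all tested genes, UW 3 was among the 3 highest for 12.8%, mNIA 4 for 15.3% and UW 2 for 13.2%. The 4 Chow mice were among the 3 highest for 0 of the 9 members, although Chow 3 was so for 35.4% of all genes. The median over the 9 of the deviation of log2 CPM from the gene's average was 0.93 in UW 3, 0.85 in mNIA 4 and 0.66 in UW 2. The next highest was 0.35 in NIA 3, and the lowest was -0.53 in mNIA 1. None of UW 2, UW 3 and mNIA 4 had a low quality weight, and their total counts of 4880235, 5048880 and 6544172 lay within those of the other libraries. Their median deviation over the cardiomyocyte markers was 0.14 in UW 2, -0.03 in UW 3 and 0.15 in mNIA 4, and over the endothelial markers -0.13, -0.02 and -0.18. Over the macrophage markers it was 0.50, -0.14 and -0.27, and over the fibroblast markers -0.19, -0.19 and -0.33. Over the pericyte and smooth muscle markers it was -0.21, 0.01 and -0.15. Over 2 lymphocyte markers it was 0.02, -0.34 and -0.80, and over 2 atrial markers -0.89, -0.03 and -0.22. Over the 5 erythrocyte markers it was -0.29, -1.16 and -0.23, and the lowest of the 16 was -1.29 in UW 4, which was not high for the members. The part of cell make-up, blood content included, in the members' levels was not tested.

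**Figure D3:**
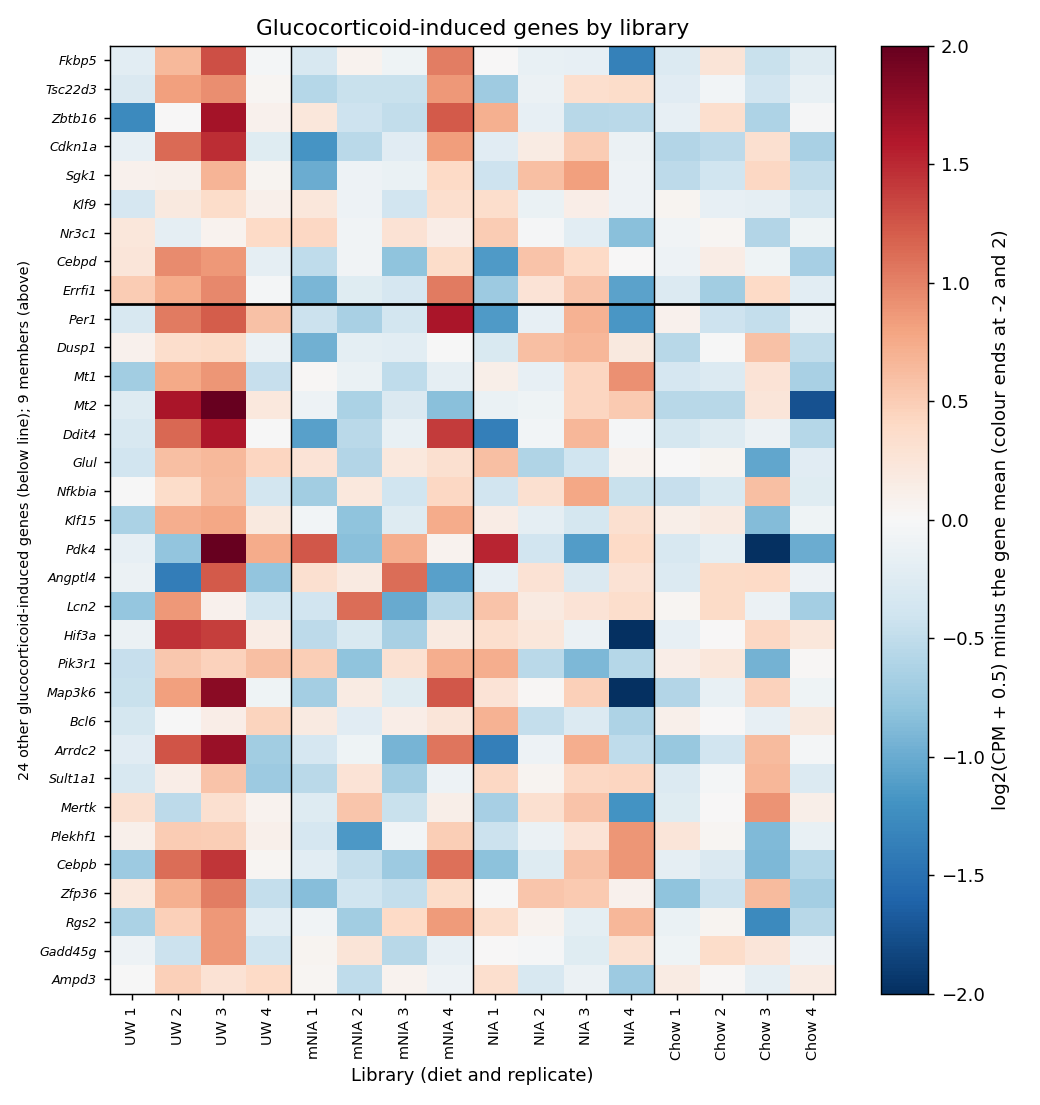
Deviation of log2(CPM + 0.5) from the gene's mean over 16 libraries, in colour, for the 9 members above the line and 24 other glucocorticoid-induced genes below it, with libraries in columns by diet. UW 2, UW 3 and mNIA 4 are high across most of the 9 members, and UW 2 and UW 3 across many of the 24.

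Correlations over the 16 libraries were taken between Fkbp5 and each of the other 8 members. Fkbp5 was most closely related to Zbtb16 (r = 0.73, rho = 0.64), Errfi1 (r = 0.67, rho = 0.47) and Cdkn1a (r = 0.62, rho = 0.40). By r these 3 of the 8 passed, with permutation p-values adjusted over the 8 relations of 0.0134, 0.0134 and 0.0308. By rho 0 of the 8 passed, and the smallest adjusted permutation p was 0.0675, for Zbtb16. Tsc22d3 had r = 0.53 and rho = 0.39, Klf9 r = 0.52 and rho = 0.46, Cebpd r = 0.45 and rho = 0.40, Nr3c1 r = 0.43 and rho = 0.34, and Sgk1 r = 0.34 and rho = 0.32. For these 5 the adjusted permutation p of r ran from 0.0597 to 0.200. Without the 2 libraries farthest from the median of Fkbp5, UW 3 and NIA 4, only Tsc22d3 passed (r = 0.75, adjusted permutation p = 0.0402), and Zbtb16, Errfi1 and Cdkn1a had r of 0.63, 0.44 and 0.59. On deviations from the diet means, only Zbtb16 passed (r = 0.77, adjusted permutation p = 0.0274).

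On those deviations r was 0.68 for Cdkn1a and 0.61 for Errfi1.

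Without UW 3, 0 of the 8 relations passed, and r with Fkbp5 was 0.59 for Zbtb16, 0.59 for Errfi1 and 0.44 for Cdkn1a. Without mNIA 4, 0 of the 8 passed, with r of 0.66 for Zbtb16, 0.59 for Errfi1 and 0.56 for Cdkn1a. In contrast, 6 of the 8 passed without NIA 4 and 5 without NIA 1, a pair of libraries with low quality weights. UW 2, UW 3 and mNIA 4 are the 3 highest libraries for Fkbp5, so that leaving all 3 out, a choice made after seeing the values, narrows the range of Fkbp5 and can by itself lower r. In the remaining 13 libraries r with Fkbp5 was 0.35 for Zbtb16, 0.27 for Errfi1, -0.14 for Cdkn1a and -0.44 for Tsc22d3. Nr3c1 then had r = 0.70 with an adjusted permutation p of 0.0721. Over all 36 pairs of members, also examined after seeing the values, r was positive in 31 with a median of 0.44, and 13 pairs passed with permutation p-values adjusted over the 36. On deviations from the diet means r was positive in 30 pairs with a median of 0.44, and 5 pairs passed. Without the 3 mice r was positive in 17 pairs with a median of -0.04, and 2 pairs passed.

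**Figure D4:**
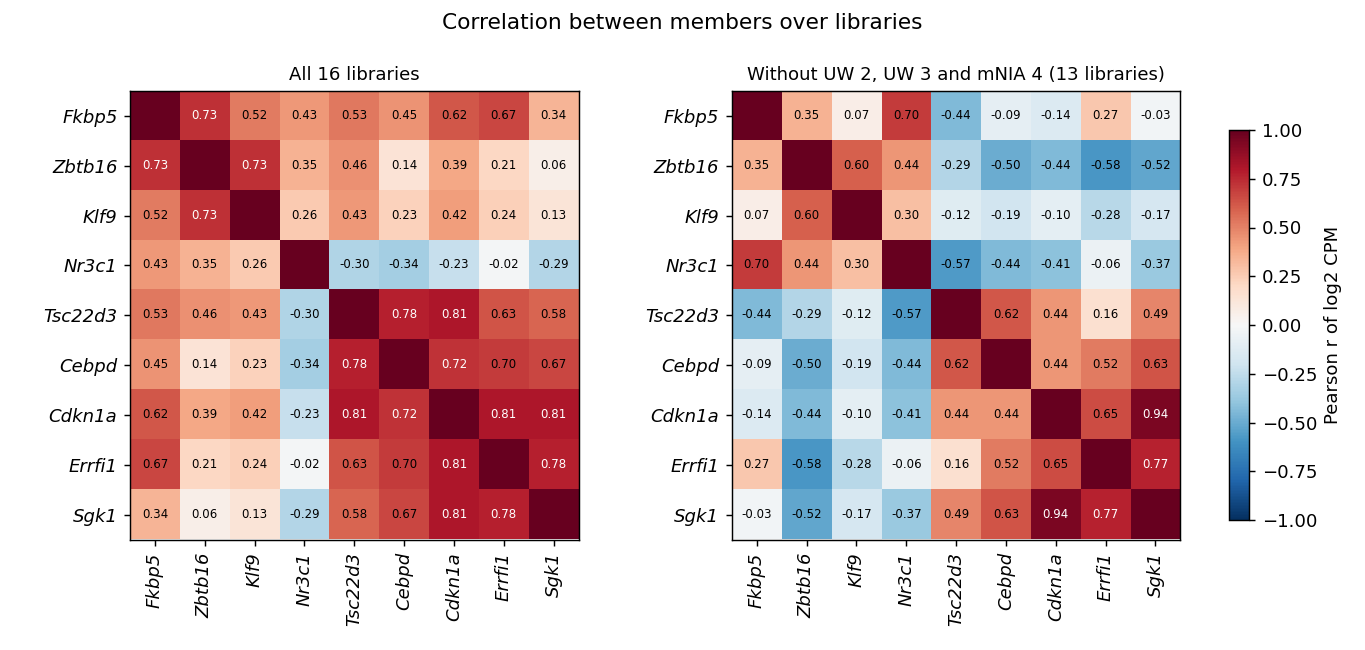
Pearson r of log2 CPM for each pair of members over 16 libraries (left) and over the 13 that remain without UW 2, UW 3 and mNIA 4 (right). Cdkn1a and Sgk1 have r of 0.81 on the left and 0.94 on the right, while Fkbp5 and Tsc22d3 have 0.53 on the left and -0.44 on the right.

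A pair that passed both with and without the 3 mice was Cdkn1a and Sgk1. Their r was 0.81 and rho 0.86 over 16 libraries, with permutation p-values adjusted over 36 pairs of 0.00162 and 0.00108. It was 0.94 over the 13 libraries (adjusted permutation p = 0.00072), 0.79 on deviations from the diet means (adjusted permutation p = 0.00108) and 0.89 without UW 2 and UW 3, the 2 libraries farthest from the median of Cdkn1a. Sgk1 and Errfi1, at r = 0.78 and rho = 0.79 over 16 libraries, had r = 0.77 over the 13 (adjusted permutation p = 0.0347). Immediate early genes, which are transcribed within minutes of a stimulus, were read beside Sgk1, with no test: the median deviation of 14 such genes was 0.79 in NIA 3, 0.78 in Chow 3, 0.63 in UW 2, 0.61 in NIA 2, 0.44 in UW 3, 0.19 in mNIA 4 and -1.02 in mNIA 1. Sgk1 was at 154 CPM in NIA 3, 115 CPM in Chow 3, 93.1 CPM in UW 2, 132 CPM in NIA 2, 139 CPM in UW 3, 114 CPM in mNIA 4 and 43.5 CPM in mNIA 1, the lowest of the 16. In the libraries not yet named, the median deviation was 0.29 in UW 1, -0.14 in NIA 4, -0.21 in Chow 4 and -0.23 in Chow 2. It was -0.32 in mNIA 3, -0.34 in UW 4, -0.37 in Chow 1, -0.42 in mNIA 2 and -0.63 in NIA 1. Sgk1 was at 91.8, 80.4, 61.3, 65.7, 79.0, 89.5, 60.3, 80.4 and 64.6 CPM in these, respectively. The libraries with a positive median deviation were those with the most Sgk1, with NIA 3 highest and mNIA 1 lowest for both. Among the high libraries the orders were not the same. UW 3 was above Chow 3 and NIA 2 for Sgk1 but below them for the immediate early genes, and UW 2 was above NIA 2 for those genes but below it for Sgk1. The part of the immediate early response in the level of Sgk1 was not tested. Zbtb16 and Klf9 were related over 16 libraries at r = 0.73 and rho = 0.67 (adjusted permutation p of r 0.00624), and had r = 0.60 over the 13 libraries (adjusted permutation p = 0.154).

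**Figure D5:**
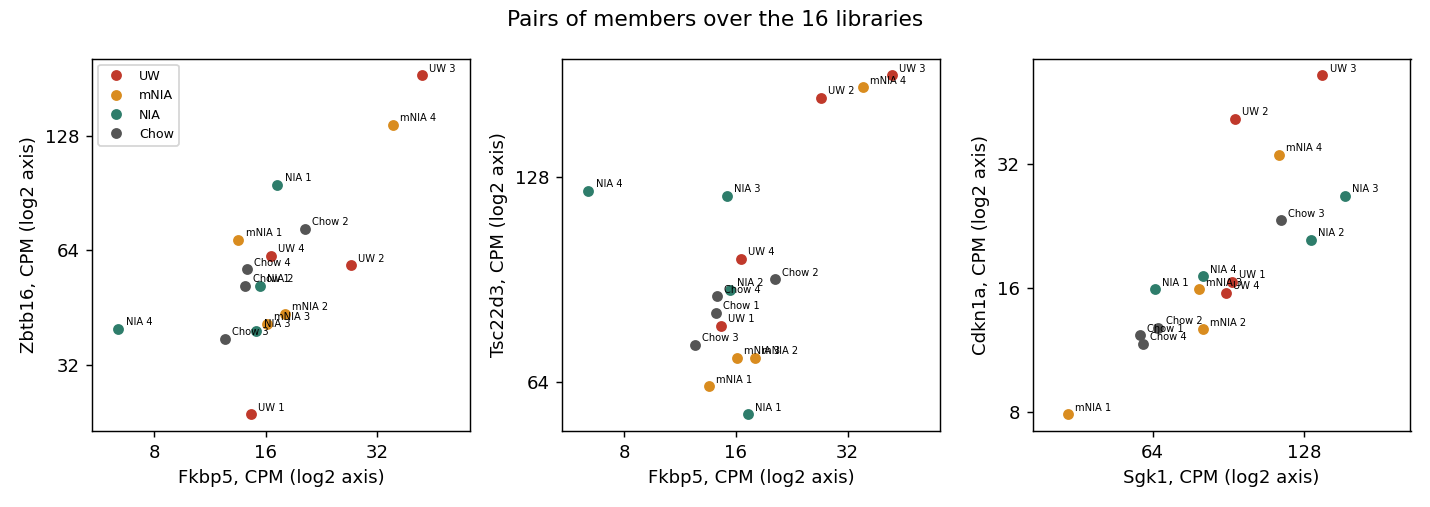
Levels of Zbtb16 and Tsc22d3 against Fkbp5, and of Cdkn1a against Sgk1, in CPM on log2 axes, with 1 labelled point per mouse coloured by diet. UW 3 and mNIA 4 lie at the top right of the left and middle panels, whereas the points of Cdkn1a and Sgk1 spread along the whole range.

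The other known targets of the hormone were read from a list of 24 genes, of which all 24 were tested. In UW hearts 20 of the 24 had a higher fitted level than in Chow hearts with a median log2 fold change of 0.48, and 0 of the 24 passed edgeR's test. In mNIA 16 of the 24 were higher with a median of 0.06, in NIA 17 with a median of 0.23, and 0 passed in either. Over all tested genes 49.2%, 51% and 48.6% were higher in UW, mNIA and NIA than in Chow hearts, and 0%, 0.00747% and 0% were called. Before adjustment 4, 0 and 0 of the 24 had a p under 0.05 in edgeR, beside 2.35%, 1.38% and 8.7% of all genes. UW 2 and UW 3 were high for many of the 24, so that their directions are not independent. The metallothionein gene Mt2, which binds zinc and copper, had 8.04, 31.2, 44.4 and 11.3 CPM in UW libraries 1 to 4, against 6.44, 6.42, 11.6 and 2.53 CPM in Chow libraries. Its difference was 1.81 ± 0.47 on the log2 scale (adjusted p = 0.977, edgeR), and mNIA 4 was at 5.19 CPM, so that Mt2 was not high in the third of the high mice. Per1, a clock gene with a receptor response element, had 35.1, 90.7, 102 and 65.9 CPM in UW libraries and 46.5, 32.6, 31.4 and 39.2 CPM in Chow libraries. The Per1 level in mNIA 4 was 136 CPM, the highest of the 16. Ddit4, an inhibitor of mTORC1 signalling, averaged 44.1 ± 26.9 CPM in UW and 19.7 ± 2.59 CPM in Chow (SD, n = 4 each), with 66.1 CPM in mNIA 4. Klf15, a metabolic regulator of the heart, had 65.4 CPM in UW 2, 67.2 CPM in UW 3 and 66.4 CPM in mNIA 4, and at most 49.1 CPM in the other libraries. Pdk4, which restrains glucose oxidation, had 2440 CPM in UW 3 but 231 CPM in UW 2 and 421 CPM in mNIA 4, within the range of the rest.

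Dusp1, a phosphatase of stress kinases, averaged 89.1 ± 14.4 CPM in UW and 75.9 ± 29.4 CPM in Chow, and Nfkbia, the inhibitor of NF-kappaB, 54.5 ± 16.1 CPM in UW and 46.0 ± 17.4 CPM in Chow (SD, n = 4 each). Glul, the glutamine synthetase gene, averaged 499 ± 140 CPM in UW and 325 ± 97.2 CPM in Chow, and Mt1 averaged 83.8 ± 44.1 CPM in UW and 59.2 ± 16.6 CPM in Chow (SD, n = 4 each). UW 3 was among the 3 highest libraries for 17 of the 24 genes, UW 2 for 14 and mNIA 4 for 10.

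Genes of the receptor's own machinery and of steroid supply numbered 21, of which 20 were tested. Of these, 17 were higher in UW than in Chow hearts with a median log2 fold change of 0.27, 16 in mNIA than in Chow hearts with a median of 0.28, and 10 in NIA than in Chow hearts with a median of 0. None passed in any of these, and 49.2%, 51% and 48.6% of all tested genes were higher in UW, mNIA and NIA than in Chow hearts. Nr3c2, the mineralocorticoid receptor, which corticosterone also binds, averaged 33.0 ± 8.84 CPM in UW and 25.6 ± 5.94 CPM in Chow (SD, n = 4 each). Hsd11b1, which regenerates active corticosterone inside cells, averaged 23.4 ± 6.96 CPM in UW and 26.3 ± 4.02 CPM in Chow (SD, n = 4 each). The receptor chaperone gene Hsp90aa1 averaged 213 ± 38.7 CPM in UW and 172 ± 24.9 CPM in Chow, and the co-chaperone gene Fkbp4, the counterpart of Fkbp5, 314 ± 66.7 CPM in UW and 307 ± 77.8 CPM in Chow (SD, n = 4 each). The median deviation of the 20 genes was 0.17 in UW 2, 0.25 in UW 3 and 0.24 in mNIA 4, below the 0.32 of NIA 1 and the 0.30 of UW 4.

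Because p53 induces Cdkn1a, 15 other p53 targets were read, of which 13 were tested. In UW hearts 6 of the 13 were higher than in Chow hearts with a median log2 fold change of -0.05, beside 49.2% of all tested genes, and 0 passed. Mdm2, the negative regulator of p53, differed by 0.03 ± 0.21, and Ccng1 (cyclin G1) by 0.39 ± 0.46 on the log2 scale. In UW 2, UW 3 and mNIA 4 the median deviation of the 13 was 0.05, -0.08 and -0.02, where Cdkn1a was at 41.2, 52.6 and 33.7 CPM. The list was mixed in these libraries, as 2 of its genes show, picked after their values were seen. Sesn1 had 116, 112 and 119 CPM there and at most 112 CPM in the others. Plk2 had 30.8, 27.6 and 31.4 CPM there and 22.8 to 102 CPM in the others. The part of p53 in the level of Cdkn1a was not tested. Since Per1 and Klf9 also belong to the clock, 15 other clock genes were read. Of these, 9 were higher in UW than in Chow hearts with a median of 0.11, and 0 passed. Their median deviation was 0.15 in UW 2, 0.11 in UW 3 and 0.35 in mNIA 4. Among them, picked after their values were seen, Ciart had 19.4, 24.1 and 31.1 CPM in these libraries and at most 18.1 CPM elsewhere. Arntl had 11, 4.48 and 1.83 CPM there, and Dbp, at 137, 108 and 142 CPM, lay within the range of the other libraries. Clock genes peak at different hours, so a median over the list cannot show a shift of phase, which was not tested. Inflammatory genes that glucocorticoids lower numbered 12, of which 9 passed the filter. In UW 6 of the 9 were higher than in Chow with a median of 0.05, in mNIA 0 of the 9 with a median of -0.61 and in NIA 5 with a median of 0.31, and 0 passed in any. Their median deviation was 0.07 in UW 2, -0.13 in UW 3 and -0.46 in mNIA 4.

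The genes most like the members were ranked by Pearson r, over 16 libraries, with the mean deviation of the 8 members other than Nr3c1. They were Ddit4 and Mbd1 at r = 0.91, Fam107a at 0.89, and Irf2bp2, Sik1 and Bcl2l1 at 0.86, and Ddit4 is also in the list of 24. That mean deviation was highest in UW 3 (1.04), mNIA 4 (0.77) and UW 2 (0.58). High levels of the ranked genes in these libraries therefore follow from how the genes were chosen. Fam107a had 12.6 CPM in UW 2, 32.1 CPM in UW 3 and 22.3 CPM in mNIA 4, and at most 10.7 CPM in the other 13 libraries. Sik1, a salt-inducible kinase gene, had 130, 93.5 and 190 CPM in those 3 libraries and at most 85.3 CPM in the others. Bcl2l1, which encodes the survival protein Bcl-xL, had 55.4, 68.0 and 62.7 CPM there and at most 36.6 CPM in the others. None of the 6 genes passed for any pair of diets.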

How the data were processed

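Single-end reads of 75 bases came from stranded, poly-A selected libraries of RNA with an integrity number above 7, per the labels. The authors deposited expected counts per gene, unscaled. The submitters' processing notes name BWA, DESeq2 and the build mm10; the counting tool, its use of strand and the gene models are not given in the sources used here. Values were rounded to whole counts.

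edgeR 4.0.16 under R 4.3.3 was used: filterByExpr, TMM scaling and a robust quasi-likelihood fit over all 16 libraries with 1 mean per diet. P-values are 2-sided and adjusted by the Benjamini-Hochberg method over the 13381 tested genes of a contrast, with a threshold of 0.05. Alternatives used DESeq2 1.42.0, limma 3.58.1, other scalings and filters, a replicate block and fits without libraries. Log2 CPM for correlations used a prior count of 2, and permutation tests used 100000 resamples (scipy 1.17.1). Exon lengths came from GENCODE vM21, as the union of a gene's exons. The expected counts carry counting error that is widest in NIA 4. The edgeR fit was checked on simulated counts, and the other steps were not.

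The members and gene lists were chosen with earlier results of these data known. Besides the 9 members, the rule was to name 15 fixed list genes, any list gene past the threshold (at most 3 per list and contrast) and the 6 genes most like the members, of at least 5 CPM. Sesn1, Plk2, Ciart, Arntl, Dbp, Cebpb, Arrdc2, Map3k6 and Hif3a were named outside this rule, after their values were seen.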

Additional observations from a re-analysis of the deposited data

Results flagged for a closer look

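Within each diet, the highest or lowest of 4 libraries was checked by Dixon's gap test, for each of the 9 genes. This picked out 4 of 36 groups, and chance picks out about 1 in 20. Tsc22d3 was at 173 CPM in mNIA 4, far from the 63.2 to 69.6 CPM of the other mNIA mice. Sgk1 was at 139 CPM in UW 3, against 89.5 to 93.1 CPM in the other UW mice. Chow 3 stood apart for a pair of members, with 115 CPM of Sgk1 against 60.3 to 65.7 CPM in the other Chow mice and 23.4 CPM of Cdkn1a against 11.7 to 12.8 CPM. Chow 3 is 1 of the 4 libraries with a low quality weight, at 0.23; its part in these values was not tested.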

How the results depend on the processing

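No member passed under RLE size factors, upper-quartile scaling, DESeq2, no filter, a minimum of 1 CPM in 4 or more libraries, the replicate block or removal of any 1 library. Sgk1 passed in 1 test with limma-voom (any diet difference, adjusted p = 0.0401), beside 2007 genes or 15% of those tested, and in 1 without the 4 libraries of low quality weight (mNIA minus NIA, -0.85, adjusted p = 0.0436), beside 3184 genes or 23.1%. The latter fit kept only NIA 2 and NIA 3 of the NIA mice. Over all genes the calls moved far more: for mNIA minus NIA 3 by DESeq2, 2001 by limma-voom and 3184 without those 4 libraries, against 0 in edgeR, for UW minus NIA 364 by DESeq2, 954 by limma-voom and 1627, against 0, and for NIA minus Chow 124, 31 and 224 against 0; the cause was not tested. The replicate numbers were not taken to pair the mice. The r of same-numbered deviations ran from -0.58 to 0.61, which cannot decide this, since differently numbered libraries were not compared. With the replicate number as a block 0 genes were called for mNIA minus Chow, against 1, and 1 of 8 relations of Fkbp5 passed, against 3. Of those relations, 1 passed on deviations from the diet means, 6 without the 4 libraries, 1 without the 2 libraries farthest from the median of Fkbp5, 0 without the 3 highest, which narrows the range of Fkbp5, and 0 to 6 without 1 library. Pearson r with Fkbp5 turned without the 3 highest for Tsc22d3 (-0.44), Cdkn1a (-0.14), Sgk1 (-0.03) and Cebpd (-0.09), and without the 4 libraries for Nr3c1 (-0.12). The log2 fold changes that turned, all of uncalled genes, were: under upper-quartile scaling Sgk1 for mNIA minus Chow (0.00) and Klf9 for UW minus NIA (0.00, and -0.01 under RLE); under limma-voom, for NIA minus Chow, Zbtb16 (-0.31) and Nr3c1 (-0.02), and for mNIA minus NIA, Errfi1 (-0.28); without the 4 libraries, for NIA minus Chow, Zbtb16 (-0.42) and Nr3c1 (-0.08), and for mNIA minus NIA, Klf9 (0.09) and Errfi1 (-0.21). The other 493 values under these settings kept their direction and their side of the threshold.

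Without 1 library, 965 log2 fold changes kept their direction and 43 turned, with these ranges. For UW minus Chow, Zbtb16 ran from -0.19 to 0.89. For mNIA minus Chow, Tsc22d3 ran from -0.29 to 0.32, Zbtb16 from -0.11 to 0.60, Cdkn1a from -0.28 to 0.55, Sgk1 from -0.16 to 0.35, Cebpd from -0.31 to 0.15 and Errfi1 from -0.32 to 0.48. For NIA minus Chow, Fkbp5 ran from -0.20 to 0.05, Zbtb16 from -0.29 to 0.21, Nr3c1 from -0.12 to 0.28 and Errfi1 from -0.14 to 0.39. For UW minus NIA, Zbtb16 ran from -0.23 to 0.86, Sgk1 from -0.28 to 0.15 and Klf9 from -0.06 to 0.16. For mNIA minus NIA, Tsc22d3 ran from -0.52 to 0.09, Zbtb16 from -0.15 to 0.67, Klf9 from -0.13 to 0.09 and Errfi1 from -0.46 to 0.38. For mNIA minus UW, Fkbp5 ran from -0.65 to 0.12, Zbtb16 from -0.69 to 0.60, Klf9 from -0.18 to 0.06 and Nr3c1 from -0.04 to 0.15. Depth limits NIA 4, with 9 counts of Fkbp5.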

Other observations

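A few of the 24 other glucocorticoid-induced genes, chosen after their values were seen, were highest in UW 2, UW 3 and mNIA 4 or in some of them. Cebpb, a relative of Cebpd, had 44.6, 55.5 and 44.1 CPM in these 3 libraries and at most 37.7 CPM in the others. Arrdc2, an arrestin domain gene, had 18.1, 25.1 and 15.9 CPM there and at most 12.4 CPM in the others. Map3k6, a stress kinase gene, had 16.9, 33.7 and 22.7 CPM there and at most 13.1 CPM in the others. Hif3a had 6.93 CPM in UW 2 and 6.62 CPM in UW 3 but 2.59 CPM in mNIA 4, and was at 0 counts in NIA 4, the shallowest library.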
